A study of Mus musculus with 8 samples.

Results

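The 46 genes described here act in G2 and M phase of the cell cycle, from entry into mitosis to the separation of the daughter cells. They were taken from a list of names that uses no measured value, drawn up with earlier results of these data known. On the array, 45 of the 46 had a probe set annotated to a single gene symbol, and the probe set of highest mean over the 8 arrays stood for each gene. All 45 lay above the level filter, so they are 45 of the 10916 genes tested, out of 18193 genes on the array. Ccnb1, the gene of cyclin B1, had no such probe set and has no value here. The cells were Dlk-positive hepatoblasts from embryonic day 14.5 mouse liver, the precursors of hepatocytes and bile duct cells. Every culture was Ink4a-Arf-null, so the best known target locus of Bmi1 was missing from both groups. The 4 arrays labelled Bmi1 came from cells transduced with Bmi1, a subunit of Polycomb repressive complex 1, and the 4 arrays labelled Control came from cells transduced with EGFP. After bead sorting, the cells rested for 12 to 18 h, were transduced and grew with hepatocyte growth factor at 50 ng/ml and epidermal growth factor at 20 ng/ml. They were purified by flow cytometry on day 28, and RNA worth 10000 cells was amplified in 2 cycles for each array. The series speaks of independent experiments, and it does not state how many embryos each culture came from.

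A cell enters mitosis when cyclin-dependent kinase 1, bound to A- and B-type cyclins, is switched on by Cdc25 phosphatases. Polo and Aurora kinases then shape the spindle, the spindle checkpoint holds the cell until every kinetochore is attached, and the anaphase-promoting complex ends mitosis by marking cyclin B and securin for destruction. Most of these genes are transcribed in G2 under a shared programme driven by B-Myb, Foxm1 and the factor NF-Y, and they are repressed in resting cells by the DREAM complex, which binds an element known as the CHR. Their RNA is therefore widely used as a readout of how much a culture divides, and fetal liver hepatoblasts are a dividing population. In RNA from a whole culture, fewer cells in G2 and M phase and less RNA per cell cannot be told apart.

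Several properties of the arrays bear on these values. The introduced gene did not follow the labels: the brighter Bmi1 probe set read 279 ± 60.01 on the arrays labelled Bmi1 and 518 ± 218 on those labelled Control (SD, n = 4 each), and the dimmer one 100.3 ± 25.4 and 216 ± 136. Whether these probes lie in the introduced sequence is not stated. All directions below are therefore directions between labels. Of the hepatoblast markers, 9 of 9 on the array were above background on every array, among them Dlk1, Alb and Afp. Replicates 1 and 2 stood apart from replicates 3 and 4, with BioC 3' hybridisation controls of 198 to 274 against 97.0 to 119. The replicate numbers paired the arrays, with correlations between partners of 0.49 to 0.68, and a fit with the replicate number as a block is given beside the fit without it.

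Nearly all mitotic genes had a slightly higher mean in the arrays labelled Bmi1. None passed the test between the groups, which few of all tested genes passed. Of the 45 genes, 43 were higher there, against 45.9% of all tested genes, and the exceptions were Bub3 and Pttg1 (Bub3 was higher, as the 44th gene, with arrays not centred, centred on all probe sets or quantile normalised). The share of all tested genes depended on the scaling, at 57.7% without centring, 66.8% with centring on all probe sets and 55.6% with quantile normalisation. The median log2 difference, Bmi1 minus Control, was 0.28, beside -0.03 over all tested genes. In limma without a block, 0 of the 45 passed at an adjusted p of 0.05, where 0.165% of all genes did, and the smallest adjusted p was 0.715, for Racgap1. With the replicate block 0 passed as well, where 3.32% of all genes did, and the smallest adjusted p was 0.0786, for Nusap1. At an unadjusted p under 0.05, 0 of the 45 were higher without the block, against 3.48% of all genes. With the block there were 13 (28.9%), against 7.42% of all genes, and 0 were lower, where 10.6% of all genes were. The groups overlapped for every one of the 45. Of all tested genes, 2.42% had all arrays labelled Bmi1 above all arrays labelled Control, and the share in the opposite order is not given here. At so small a share, 0 of 45 does not set these genes apart.

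**Figure D1:**
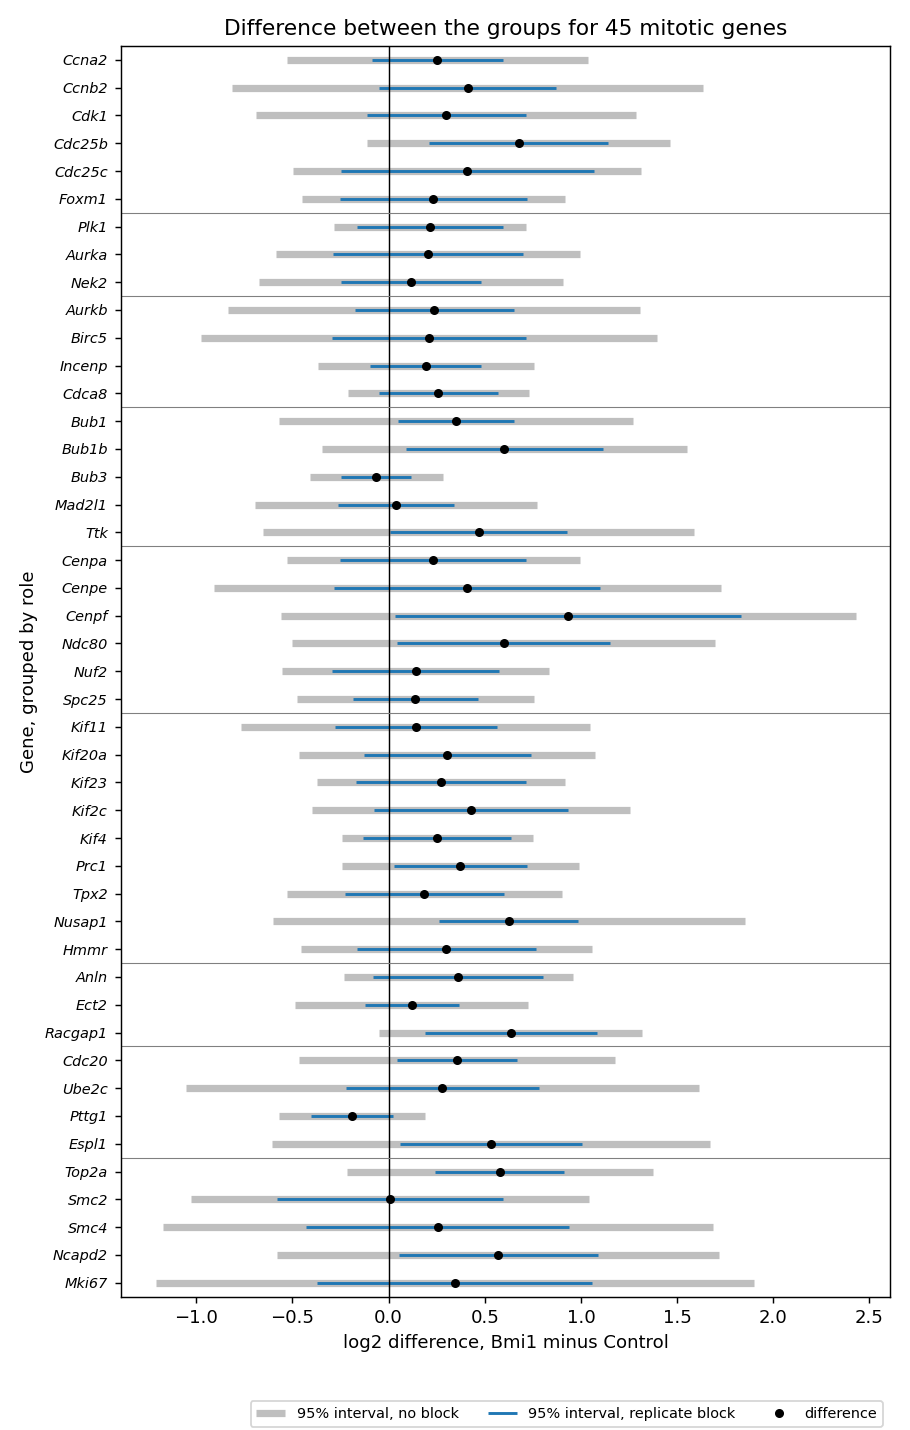
Log2 difference (Bmi1 minus Control) of each of the 45 mitotic genes on the horizontal axis, by role from top to bottom. Points are differences, grey bars the 95% interval without a block and blue lines the 95% interval with the replicate block (4 arrays a group). Without the block 0 intervals lie above 0, and with it 13 do.

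The direction was not shared by all 4 pairs of arrays. Pairs are compared here on the log2 scale after each array was centred on the median of all tested genes, whereas the signals printed for single arrays are as deposited. In replicate 1, 42 of the 45 genes were higher on the array labelled Bmi1, with a median log2 difference of 0.55. Replicate 2 also had 42 higher (median 0.33), and replicate 3 had 37 (median 0.41). In replicate 4 the order turned, with 34 of the 45 genes lower on the array labelled Bmi1 and a median of -0.22. Over all tested genes 44.3% to 49.1% were higher within a pair, and the medians lay between -0.05 and -0.0090. Only 9 genes were higher in 4 of 4 pairs (20.0%, against 11.4% of all tested genes): Cdc25b, Bub1, Ndc80, Kif4, Nusap1, Ect2, Racgap1, Espl1 and Top2a. Dimmer probe sets of Bub1, Racgap1 and Top2a, also above background on every array, were not higher in every pair. On Bmi1 2 against Control 2 they read 20.3 against 28.7 for Bub1 and 61.7 against 64.9 for Racgap1. For Top2a it was 23.1 on Bmi1 4 against 34.2 on Control 4. A further 27 of the 45 were higher in exactly 3 pairs, against 21.4% of all tested genes. On the deposited signals, which are not centred, Cdc20 and Kif23 were also higher in all 4 pairs, making 11, and the members higher in replicates 1 to 4 numbered 43, 43, 38 and 13.

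**Figure D2:**
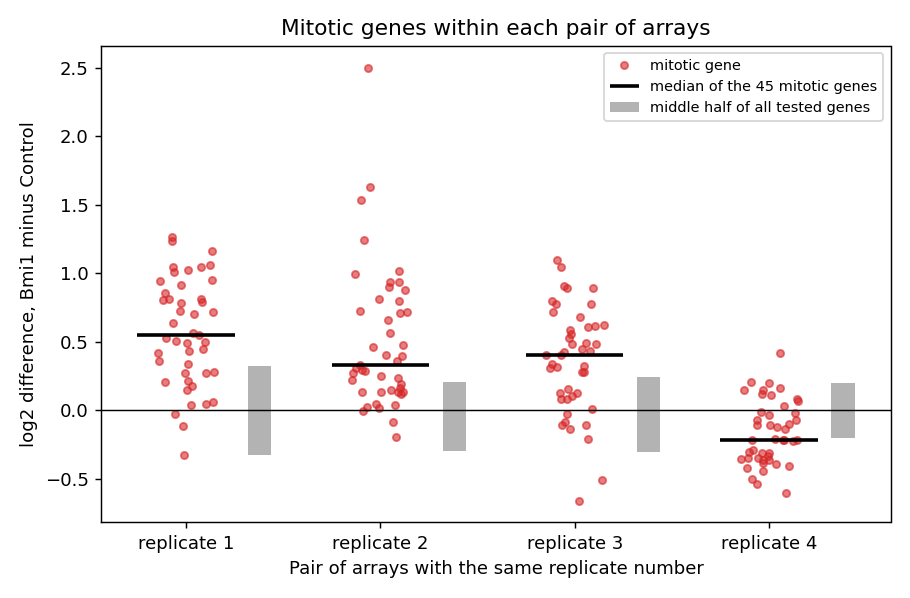
Log2 difference (Bmi1 minus Control) of the 45 mitotic genes within each pair of arrays that share a replicate number. Red points are genes, the black line is their median (0.55, 0.33, 0.41 and -0.22 for replicates 1 to 4), and the grey bar spans the 25th to the 75th percentile of all 10916 tested genes. The points lie mostly above 0 in replicates 1 to 3 and mostly below it in replicate 4.

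The size of the difference varied with single arrays. On the centred scale Control 2 was the lowest of the 8 arrays for 32 of the 45 genes and Control 1 for 8, while Control 4 was the highest for 19 and Bmi1 1 for 13. Without Control 2 the median log2 difference was 0.08, with 32 genes higher, and without Control 4 it was 0.53, with 43 higher. Without Bmi1 2 the median was 0.45. With limma's array weights, which count variable arrays less, 26 genes were higher and the median was 0.04. Within replicates 1 and 2 it was 0.46, and within replicates 3 and 4 it was 0.12, with 31 genes higher. The share of all tested genes higher in each of these fits is not given here, so these counts have no background beside them. With the block and without replicate 4, 23 genes were higher at an unadjusted p under 0.05, against 6.11% of all genes. There were 4, 5 and 5 without replicate 1, 2 or 3, against 7.26%, 6.64% and 5.51%. Leaving out replicate 4 also gave the only member that passed in any fit, the checkpoint kinase gene Bub1b (log2 difference 0.90, SE 0.16, limma adjusted p = 0.0439), where 1.83% of all genes passed. Beside that share, 1 of 45 does not set these genes apart. Replicate 4 is also the pair in which most members were lower on the array labelled Bmi1, Bub1b among them (-0.31).

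**Figure D3:**
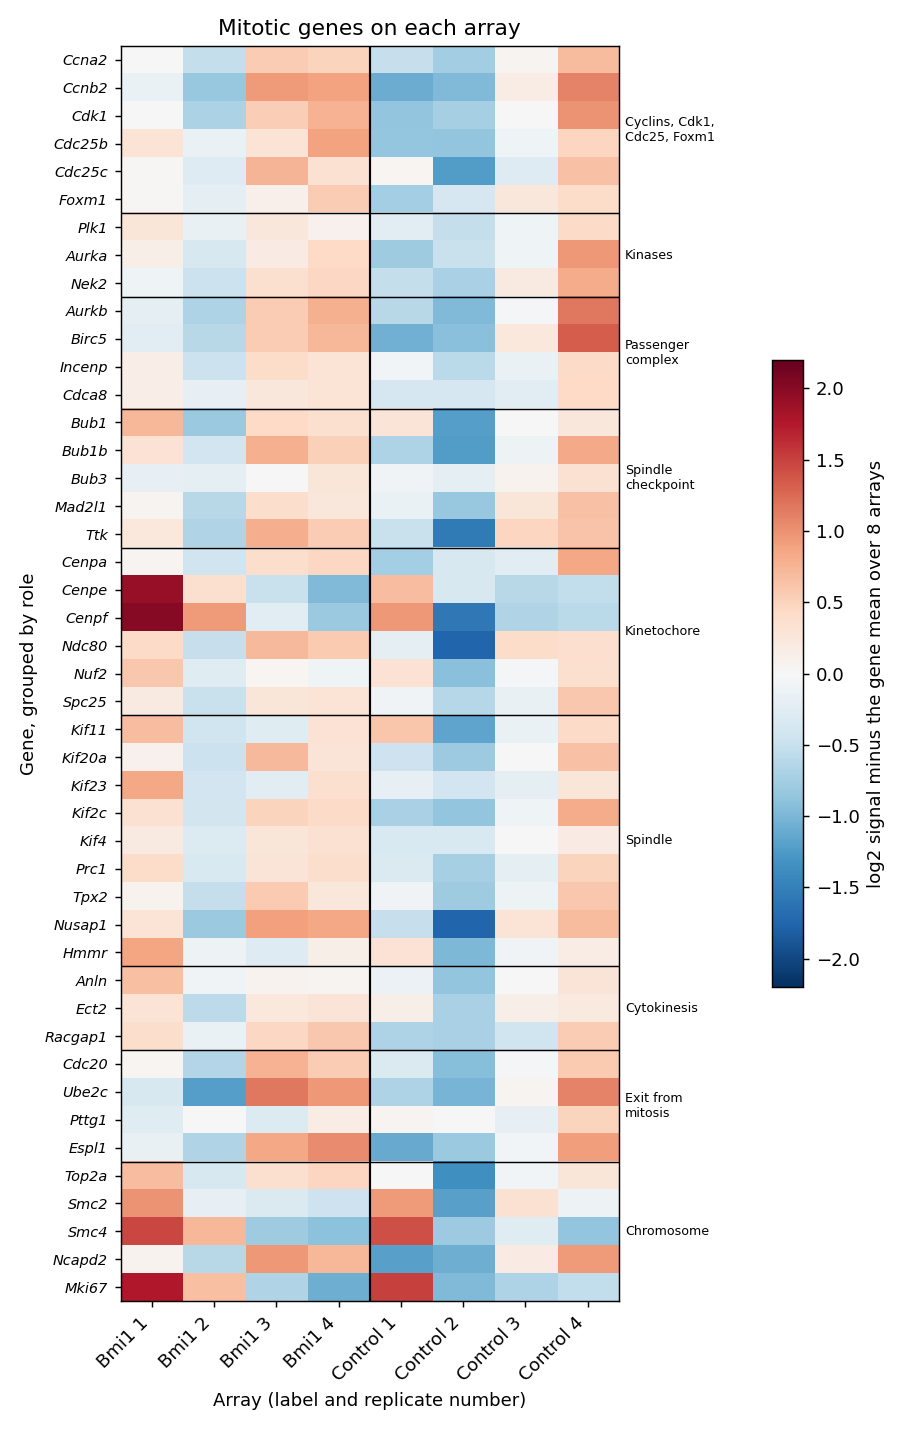
Signal of the 45 mitotic genes (rows, by role) on each of the 8 arrays (columns, arrays labelled Bmi1 left of those labelled Control). Colour is the centred log2 signal minus the mean of that gene over the 8 arrays, red above and blue below it. The Control 2 column is the lowest for 32 genes, and a few rows such as Mki67, Smc4 and Cenpf run against the others across replicates.

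The promoters of these genes share sequence that the choice by name did not use. RefSeq promoter sequences (build GRCm38.p6, 250 bases before to 50 bases after the start) matched 38 of the 46 genes with 41 promoters. Each was searched on both strands for CCAAT, the pentamer bound by NF-Y, and for TTTGAA, the core of the CHR, and overlapping matches were counted separately (2 in these promoters). CCAAT was found in 33 of the 41 (80.5%), against 56.8% of the 44 promoters of 38 DNA replication genes, 37.3% of the promoters of tested genes and 37.4% of all 32851 promoters. At least 2 matches were present in 53.7%, against 36.4%, 14.2% and 11.7% in the same order, so the replication genes lay between the mitotic genes and the rest. TTTGAA was found in 31 of the 41 (75.6%), against 11.4% of the promoters of replication genes, 11.7% of those of tested genes and 17.9% of all. Both stood together in 68.3% of the mitotic promoters, in 6.82% of those of replication genes and in 4.53% of those of tested genes. Ect2, Prc1 and Bub3 entered with overlapping promoter windows, which repeat some matches in these shares and in the positions below. With only the first promoter of each of the 38 genes, 78.9% held CCAAT, 73.7% TTTGAA and 65.8% both. The TTTGAA matches lay at a median of -5 from the start and the CCAAT matches at a median of -67.5. These counts describe letters in a window and do not show which factors were bound.

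Shown here are the 250 bases before the start of 5 genes, with every CCAAT and TTTGAA match of either strand in capitals. Top2a and Nusap1 had the smallest p of all members with the replicate block. Cdk1 is the kinase that starts mitosis, and Cdc20 activates the complex that ends it. Mki67 had another pattern over the arrays, given further on. The sequences come from chr11:99024190-99024439 (minus strand) for Top2a, chr10:69352913-69353162 (minus) for Cdk1, chr4:118437344-118437593 (minus) for Cdc20, chr7:135716380-135716629 (minus) for Mki67 and chr2:119618048-119618297 (plus) for Nusap1.
Top2a: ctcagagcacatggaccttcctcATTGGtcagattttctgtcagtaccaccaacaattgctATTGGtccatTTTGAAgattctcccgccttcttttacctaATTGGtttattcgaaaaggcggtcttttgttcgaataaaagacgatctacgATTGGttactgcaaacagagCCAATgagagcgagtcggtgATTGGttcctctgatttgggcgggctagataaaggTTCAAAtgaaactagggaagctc
Cdk1: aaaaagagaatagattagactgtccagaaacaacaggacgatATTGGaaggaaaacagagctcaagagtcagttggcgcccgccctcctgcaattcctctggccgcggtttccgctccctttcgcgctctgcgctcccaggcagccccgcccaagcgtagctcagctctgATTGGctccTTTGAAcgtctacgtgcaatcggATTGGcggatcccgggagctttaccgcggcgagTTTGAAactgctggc
Cdc20: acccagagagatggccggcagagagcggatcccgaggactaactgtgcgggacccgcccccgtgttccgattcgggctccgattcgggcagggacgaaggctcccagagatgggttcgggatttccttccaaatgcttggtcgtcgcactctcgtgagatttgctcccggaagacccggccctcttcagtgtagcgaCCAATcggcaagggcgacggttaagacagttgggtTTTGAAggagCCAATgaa
Mki67: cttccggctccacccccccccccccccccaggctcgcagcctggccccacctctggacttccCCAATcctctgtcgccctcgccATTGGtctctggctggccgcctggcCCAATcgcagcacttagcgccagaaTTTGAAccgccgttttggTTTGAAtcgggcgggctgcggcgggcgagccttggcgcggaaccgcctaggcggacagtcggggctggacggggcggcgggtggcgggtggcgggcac
Nusap1: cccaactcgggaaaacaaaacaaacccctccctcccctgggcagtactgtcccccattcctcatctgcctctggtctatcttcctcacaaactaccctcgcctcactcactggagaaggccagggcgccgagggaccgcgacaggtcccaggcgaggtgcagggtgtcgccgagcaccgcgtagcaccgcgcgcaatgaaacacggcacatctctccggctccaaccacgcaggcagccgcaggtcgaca
In this stretch Top2a held 6 CCAAT and 2 TTTGAA matches, Cdk1 and Mki67 3 and 2 each, and Cdc20 2 and 1. Nusap1 held 0 of either, as did Birc5, Mad2l1, Nuf2 and Pttg1 over the whole window. Among these genes without a match, the log2 difference was -0.19 for Pttg1, 0.04 for Mad2l1, 0.14 for Nuf2, 0.21 for Birc5 and 0.63 for Nusap1.

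The genes that switch mitosis on were higher in mean in the arrays labelled Bmi1, for 6 of 6 measured members and with log2 differences of 0.23 to 0.68, but none passed. Cdc25b, a phosphatase that activates cyclin-dependent kinase 1, read 58.03, 43.1, 63.3 and 95.3 on the arrays labelled Bmi1 and 22.1, 22.99, 44.1 and 69.1 on those labelled Control. It was higher within all 4 pairs although the groups overlapped. Its means were 64.9 ± 21.97 and 39.6 ± 22.2 (SD over 4 arrays), and their log2 difference was 0.68 (SE 0.35, limma adjusted p = 0.764; 0.129 with the block).

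Ccnb2, the gene of cyclin B2, read 286, 181, 658 and 624 on the arrays labelled Bmi1, against 137, 155, 362 and 708 on those labelled Control. Cdk1, the kinase itself, read 587, 376, 939 and 1074, against 302, 345, 612 and 1232 in the same order. Both were lowest on Control 1 and highest on Control 4, so the whole range of the 8 arrays lay within the arrays labelled Control. The log2 difference was 0.41 for Ccnb2 (SE 0.55, adjusted p = 0.966; 0.331 with the block) and 0.30 for Cdk1 (SE 0.44, adjusted p = 0.968; 0.43 with the block). For Cdk1 the 95% interval ran from -0.69 to 1.29 without the block and from -0.11 to 0.71 with it, and both include 0. Foxm1, the forkhead factor that drives many of these genes, read 43.5, 37.3, 50.5 and 68.8 on the arrays labelled Bmi1 and 22.02, 31.2, 52.4 and 60.6 on those labelled Control (log2 difference 0.23, SE 0.30, adjusted p = 0.965; 0.612 with the block). Cyclin A2, from Ccna2, ranged from 252 to 565 against 200.1 to 605, and Cdc25c from 28.1 to 65.2 against 12.0 to 58.2.

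The mitotic kinases Plk1, Aurka and Nek2 had small log2 differences of 0.12 to 0.22, and each was higher in 3 pairs and lower in replicate 4. Plk1, the polo kinase of centrosomes and kinetochores, read 227, 173, 243 and 215 on the arrays labelled Bmi1 and 149, 126, 180.2 and 267 on those labelled Control. Its means were 214 ± 29.8 and 181 ± 61.7 in the same order, and its log2 difference of 0.22 had a 95% interval from -0.28 to 0.71 (SE 0.22, limma adjusted p = 0.947; 0.535 with the block). Aurka, the Aurora kinase of spindle poles, read 231, 169.7, 261 and 308 against 113, 146, 202 and 428, the highest value again on Control 4 (log2 difference 0.21, SE 0.35, adjusted p = 0.977; 0.667 with the block). Nek2, a centrosome kinase, ranged from 122 to 246 against 97.4 to 308.

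In the chromosomal passenger complex, which corrects faulty attachments of chromosomes, 4 of 4 members were higher in mean, with log2 differences of 0.19 to 0.26. Cdca8, which encodes borealin, read 601, 497, 708 and 719.6 on the arrays labelled Bmi1 and 396, 411, 477 and 776 on those labelled Control (log2 difference 0.26, SE 0.21, limma adjusted p = 0.925; 0.367 with the block). Incenp, the scaffold of the complex, read 799, 538, 1039 and 954 against 645, 468, 665 and 1008 (0.19, SE 0.25, adjusted p = 0.964; 0.463 with the block). The catalytic subunit Aurkb and survivin, from Birc5, varied more between replicates than these. Aurkb ranged from 96.3 to 283 on the arrays labelled Bmi1 and from 73.4 to 359 on those labelled Control, and Birc5 from 118 to 315 and from 77.5 to 471. The probe sets of Incenp and Aurkb, like those of Cdc25c, Kif2c and Cdc20, carry the suffix _x_at, which marks possible cross-hybridisation with other transcripts.

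Of the 5 spindle checkpoint genes 4 were higher in mean, with log2 differences from -0.06 for Bub3 to 0.60 for Bub1b. Bub1b, the BubR1 protein of the mitotic checkpoint complex, read 287, 177, 427 and 351 on the arrays labelled Bmi1 and 132, 93.2, 215 and 428 on those labelled Control. Its log2 difference was 0.60 (SE 0.42, limma adjusted p = 0.893; 0.206 with the block), with pairs 1 to 3 at 0.81 to 1.01 and pair 4 at -0.31. Bub1, the kinase that recruits checkpoint proteins to kinetochores, read 245, 84.5, 216 and 202 against 167, 59.6, 148 and 182. It was higher in all 4 pairs by 0.11 to 0.45 on the log2 scale, although replicate 2 was low in both groups (log2 difference 0.35, SE 0.41, adjusted p = 0.959; 0.21 with the block). A dimmer Bub1 probe set, also above background on every array, gave 0.049. Ttk, the kinase Mps1, had a log2 difference of 0.47 and Mad2l1, which inhibits Cdc20, of 0.04. Bub3, which anchors Bub1 and BubR1, had the narrowest range of all 45 genes, 1.57-fold between its lowest and highest array, where the median member spanned 3.79-fold. With the block its 95% interval ran from -0.25 to 0.12.

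Kinetochore genes gave 6 of 6 higher means, with log2 differences of 0.14 to 0.93. Ndc80, part of the complex that grips microtubules, read 47.2, 24.1, 63.9 and 56.6 on the arrays labelled Bmi1 and 26.9, 7.35, 47.9 and 47.6 on those labelled Control. The value on Control 2 lay below the background of that array, and the gene was higher in 4 of 4 pairs (log2 difference 0.60, SE 0.49, limma adjusted p = 0.93; 0.244 with the block). Cenpf, a large kinetochore and nuclear matrix protein, had the widest range of any member, 13.8-fold. It read 354, 173, 77.3 and 50.2 on the arrays labelled Bmi1 and 159, 25.7, 53.9 and 57.9 on those labelled Control. Its log2 difference was 0.93 (SE 0.67, adjusted p = 0.897; 0.263 with the block), with pair 2 at 2.50 and the other pairs at -0.22 to 1.04. A dimmer Cenpf probe set, also above background on every array, gave 0.079. Nuf2 and Spc25, partners of Ndc80 in its complex, had log2 differences of 0.14 each. The centromeric histone gene Cenpa stood at 0.23 and the kinetochore motor gene Cenpe at 0.41.

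All 9 spindle genes were higher in mean, with log2 differences of 0.14 to 0.63. Nusap1, a microtubule bundling protein, read 248, 116, 409.7 and 388 on the arrays labelled Bmi1 and 131, 55.5, 251 and 342 on those labelled Control. Every pair was higher, by 0.15 to 0.93, while replicates differed more than that within each group. The means were 290.3 ± 136 and 195 ± 127 (SD over 4 arrays). Their log2 difference was 0.63 (SE 0.55, limma adjusted p = 0.944), and with the block the SE was 0.16 and the adjusted p 0.0786. Prc1, which bundles the central spindle, read 443, 273, 443 and 468 against 250.3, 194, 298 and 494 (0.37, SE 0.27, adjusted p = 0.907; 0.246 with the block). The kinesin genes lay between 0.14 for Kif11 and 0.43 for Kif2c, with Kif4 at 0.25, Kif23 at 0.27 and Kif20a at 0.31. Tpx2, which activates Aurora A, stood at 0.19 and Hmmr at 0.30.

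The genes of cytokinesis included the member with the smallest p without a block. Racgap1, the GTPase-activating protein of centralspindlin, read 132, 93.3, 151 and 163 on the arrays labelled Bmi1 and 57.04, 58.4, 75.1 and 156 on those labelled Control. Control 4 alone overlapped the arrays labelled Bmi1. The means were 135 ± 30.6 and 86.7 ± 47.2, and their log2 difference was 0.64 (SE 0.30, limma adjusted p = 0.715; 0.135 with the block), and pair 4 gave 0.03. A dimmer Racgap1 probe set, also above background on every array, gave a log2 difference of 0.34. Anln, the actin-binding anillin of the cleavage furrow, read 494, 305, 358 and 349 against 266, 164, 318 and 399 (0.36, SE 0.27, adjusted p = 0.907; 0.377 with the block). Ect2, the exchange factor that activates RhoA at the furrow, stood at 0.12 and was higher in 4 of 4 pairs by 0.07 to 0.18.

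The genes that end mitosis split. Cdc20, the activator of the anaphase-promoting complex, read 934, 598, 1673 and 1426 on the arrays labelled Bmi1 and 681, 462, 908 and 1411 on those labelled Control (log2 difference 0.36, SE 0.37, limma adjusted p = 0.947; 0.219 with the block). Espl1, the protease separase that cuts cohesin, read 58.6, 41.9, 133 and 149 against 26.7, 34.8, 64.9 and 134 (0.53, SE 0.51, adjusted p = 0.947; 0.226 with the block), and every pair was higher. Pttg1 encodes securin, which keeps separase inactive until anaphase. It read 1240.2, 1547, 1312 and 1786 on the arrays labelled Bmi1 and 1461, 1466, 1336 and 2176 on those labelled Control, lower in 3 of 4 pairs on these signals and higher in replicate 2 (centred log2 difference over all arrays -0.19, SE 0.17, adjusted p = 0.947; 0.333 with the block). Ube2c, the ubiquitin-conjugating enzyme of the complex, read 166, 92.1, 521 and 445 against 122, 99.7, 227 and 475, and both groups had their high values in replicates 3 and 4.

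Among the chromosome genes, Top2a, the topoisomerase that untangles sister chromatids, read 783, 394, 674 and 717 on the arrays labelled Bmi1 and 449, 185, 474 and 613 on those labelled Control. Each pair was higher, by 0.19 to 0.99 on the log2 scale. The means were 642 ± 172 and 430.2 ± 179 (SD over 4 arrays), and their log2 difference was 0.58 (SE 0.35, limma adjusted p = 0.834), and with the block the SE was 0.14 and the adjusted p 0.0797. A dimmer Top2a probe set, also above background on every array, gave a log2 difference of 0.093. Ncapd2, a condensin subunit, read 225, 143, 453 and 381 against 85.7, 96.5, 248 and 434 (0.57, SE 0.51, adjusted p = 0.947; 0.234 with the block). Mki67, whose protein Ki-67 coats mitotic chromosomes and is the usual proliferation marker, read 766, 365, 151 and 110.4 on the arrays labelled Bmi1 and 593, 108, 141 and 159 on those labelled Control. Replicate 1 was high in both groups, and the log2 difference was 0.34 (SE 0.69, adjusted p = 0.984; 0.609 with the block). The condensin core genes Smc2 and Smc4 stood at 0.0093 and 0.26.

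**Figure D4:**
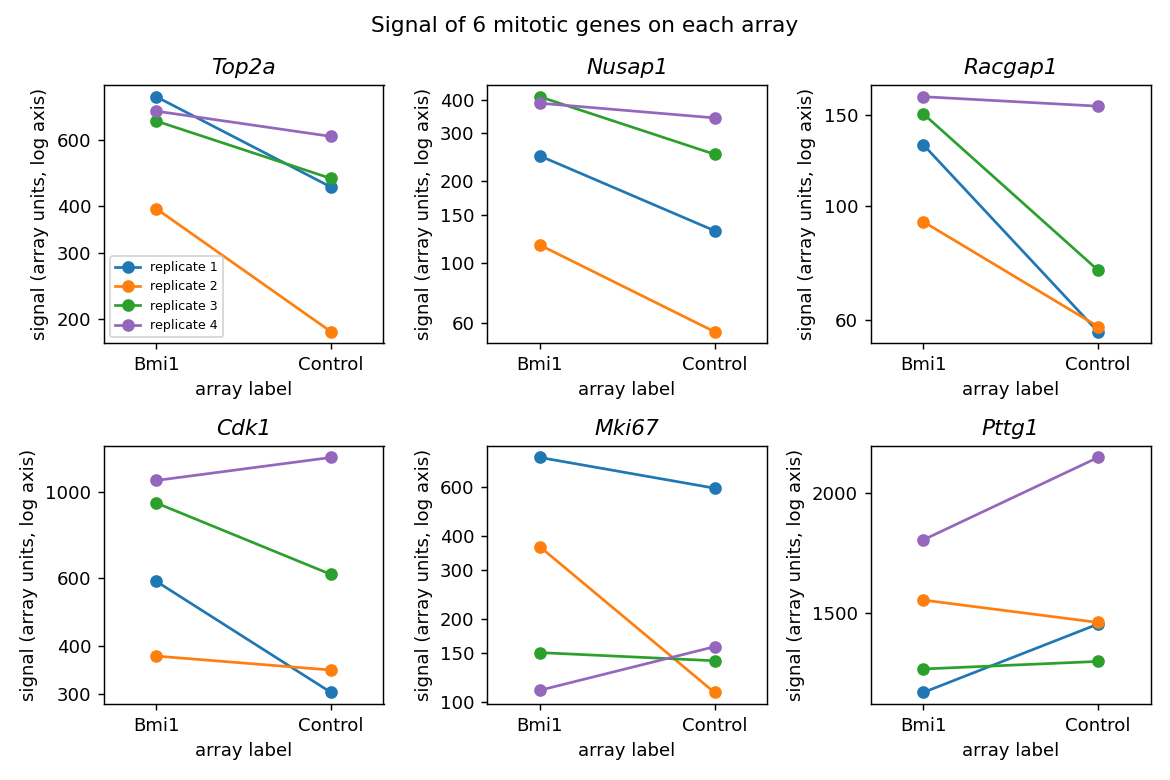
Signal (array units, log axis) of 6 mitotic genes on the arrays labelled Bmi1 (left) and Control (right), with a line joining arrays of the same replicate number. Top2a, Nusap1 and Racgap1 are higher on the array labelled Bmi1 in all 4 pairs, Cdk1 and Mki67 in 3, and Pttg1 in 1.

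Most members varied together across replicates, and for some the difference between replicates exceeded any difference between the groups. In both groups 35 of the 45 genes had a higher mean in replicates 3 and 4 than in replicates 1 and 2, against 38.9% of all tested genes (38.6% were lower in both), with log2 differences of up to 1.85 (Ube2c) on the arrays labelled Bmi1 and up to 1.77 (Birc5) on those labelled Control. For 4 genes, Cenpe, Cenpf, Smc4 and Mki67, the mean was lower in replicates 3 and 4 in both groups. Their log2 differences ran from -2.08 to -1.86 on the arrays labelled Bmi1 and from -0.88 to -0.33 on those labelled Control. The other 6 (Nuf2, Kif11, Kif23, Hmmr, Anln and Smc2) were lower in replicates 3 and 4 on the arrays labelled Bmi1 and higher on those labelled Control. The largest difference between the groups was 0.93, for the brightest Cenpf probe set. Its other probe set above background on every array gave 0.079.

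**Figure D5:**
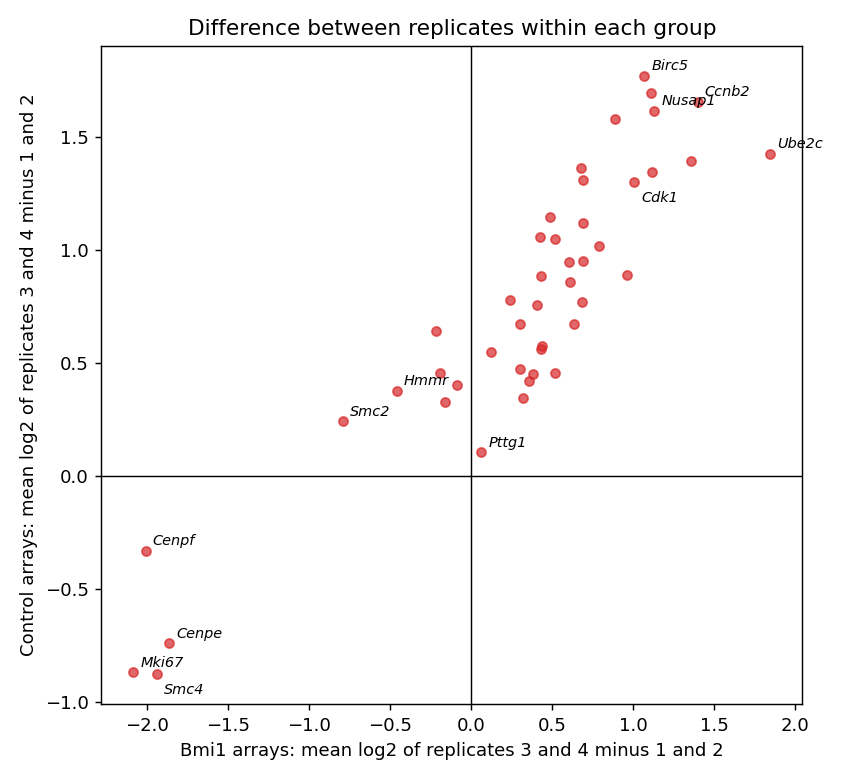
Mean log2 signal of replicates 3 and 4 minus that of replicates 1 and 2 for the 45 mitotic genes, on the arrays labelled Bmi1 (horizontal axis) and on those labelled Control (vertical axis). In the upper right corner 35 genes are higher in replicates 3 and 4 in both groups, and in the lower left corner Cenpe, Cenpf, Smc4 and Mki67 are lower in both.

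Other probe sets of the same genes show that the split can run within a gene. The 45 genes had 62 further probe sets, of which 34, for 24 genes, were above background on all 8 arrays. In 28 of these 34 the group difference had the same sign as in the probe set of highest mean, and 24 were higher in the arrays labelled Bmi1, with a median log2 difference of 0.14. All 3 Smc4 probe sets were lower in replicates 3 and 4 over both groups, with log2 differences of -1.41, -1.42 and -2.14. For Smc2, of mixed direction by its brightest probe set (-0.27 over both groups), dimmer ones above background on every array gave -1.76 and -1.93. These were lower in replicates 3 and 4 in each group. Bub3 disagreed: its brightest probe set was 0.33 higher in replicates 3 and 4, while its other probe sets above background on every array were lower there (-0.67 and -1.05). Only 24 of the 34 shared the sign of the replicate difference with the brightest probe set of their gene. On Control 1 the 3' over 5' ratio of Gapdh, a sign of RNA or amplification length, was 3.10, against 1.65 to 1.96 on the other arrays, and its part in these values was not tested.

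Mitotic genes outside the 46 gave a mixed picture, with 0 called in either fit. Of all tested genes, 0.165% were called without the block and 3.32% with it, and 45.9% were higher in the arrays labelled Bmi1. Of 33 further spindle and cytokinesis genes tested, 29 were higher in the arrays labelled Bmi1, with a median log2 difference of 0.26 and the same turn in replicate 4 (-0.22). Of 29 further kinetochore genes 15 were higher and 14 lower, with a median of 0.01. Among 15 genes of the anaphase-promoting complex and its cofactors 10 were higher (median 0.08), and among 17 of condensin and cohesin 15 (median 0.19). DNA replication genes, the S phase counterpart, were higher for 41 of 45, with a median of 0.16, and lower in replicate 4 (-0.19). Their smallest adjusted p with the block was 0.0695, for the polymerase subunit gene Pold2.

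Markers of other cells also differed between the labels. The summed signal of 11 fibroblast and stellate cell markers was 3608 to 7797 on the arrays labelled Bmi1 and 4831 to 14952 on those labelled Control, highest on Control 1, and 8 of the 11 were above background on every array. Singly, 10 of 10 tested were lower in mean in the arrays labelled Bmi1, as were 5908 of all 10916 tested genes. Their median log2 difference was -1.01, with pair medians of -3.36, -0.25, -0.52 and -0.34 for replicates 1 to 4. Summed biliary markers (5 of 5 above background) ran from 4032 to 4351 and from 2174 to 3301, without overlap. Singly, Krt7 (1169 to 1905 against 915 to 1517) and Sox9 (90.4 to 228 against 74.5 to 154) overlapped. Krt19, Epcam and Cdh1 did not, and on the centred scale 2.42% of all tested genes were likewise higher without overlap. Of 6 erythroid markers Alas2 was above background on 0 arrays and Hba-a1 on 4, and Tfrc, also common in dividing cells, made up most of a sum of 1527 to 1914 against 982 to 1574. Of 7 endothelial markers Pecam1 and Tek were above background on 0 arrays, and of the 6 macrophage markers 4 were above it on all arrays, with sums of 182 to 515 against 278 to 710.3. The endothelial sum was 239.8 to 350.2 against 114 to 233, mostly Egfl7. The part of these cells in the mitotic values was not tested.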

How the data were processed

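Expression was measured on Affymetrix mouse arrays, 45101 probe sets each. The deposited values are linear intensities. The mean after trimming 2% at each end, averaged over the 8 arrays, is 100, the value that a global scaling of each array to 100 would give. The trimmed mean of each single array is not given here. No source used here names the software. Of the probe sets, 34945 had 1 symbol in the platform annotation, 932 several and 9160 none.

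Values were turned into log2(value + 3.78), with a pseudocount equal to the overall median over 4, so differences of dim genes are understated. The probe set of highest mean stood for a gene. Genes below the 40th percentile of mean level were dropped, and each array was centred on the median of the 10916 genes left. Groups were compared by limma 3.58.1 under R 4.3.3 (lmFit, then eBayes with trend), two-sided. P-values were adjusted by Benjamini-Hochberg over all tested genes. The replicate number as a block was an alternative, as were other pseudocounts, filters, scalings, probe set rules and limma settings, fits within replicates and fits without single arrays. Partners of the same replicate number deviated together from their group means, with correlations of 0.53, 0.49, 0.50 and 0.68. The labels do not state what a shared number means. The spread among these arrays, which may be partly technical, is all that the p-values measure, and their precision is set by the number of arrays. Background was the 95th percentile of 27 Bacillus control probe sets on each array, 4.09 to 9.97. Promoter motifs were counted in RefSeq sequences. The limma fit was tested on simulated data, where it recovered 21% of changes of 1 on the log2 scale without the block and 49% with it. A count of 0 passing therefore does not show that small differences are absent.

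The genes and lists were chosen with earlier results of these data known. Values on each array are given for Mki67, Top2a, Cdk1, Plk1 and Foxm1, for any called member and for the 2 members of smallest p with the block in each of 9 role groups (Ccnb1, also in this rule, has no value). Pttg1 and Ube2c were added after their values were seen. Of other pathway genes only called ones were to be named, and Pold2 was added for its p.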

Additional observations from a re-analysis of the deposited data

Results flagged for a closer look

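Of 90 sets of 4 arrays (45 genes in each group), 5 held 1 array whose distance to its nearest neighbour on the centred log2 scale passed the 95% limit of the Dixon test. About 1 in 20 is flagged by chance. On the arrays labelled Bmi1 the low array was Bmi1 2 each time, with a gap of 0.909 of the range for Ect2, 0.874 for Spc25, 0.842 for Prc1 and 0.84 for Kif2c. On the arrays labelled Control it was Control 2 for Ect2 (0.906). Ect2 read 217 on Bmi1 2 and 187 on Control 2, against 391 to 408 and 324 to 381 on the other arrays of each group.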

How the results depend on the processing

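The count of 0 members passing limma's adjusted threshold held in all alternatives without the block, and the replicate block changed no call (0 passed, 43 higher). Scaling changed little for the group as a whole. Without centring, with centring on all probe sets and with quantile normalisation 44 of the 45 were higher (Bub3 joined them), with medians of 0.35, 0.41 and 0.35, while the median of all tested genes was 0.05, 0.11 and 0.03. With array weights only 26 were higher and the median was 0.04, and the share of all tested genes in that fit is not given here. With every probe set tested by itself 74 of 87 were higher, against 46.04% of all 20967 probe sets tested in this way. The number is larger because more features were tested, but the share is smaller than 43 of 45. The count higher at an unadjusted p under 0.05 with the replicate block, 13 over all arrays, ran from 4 to 23 when both arrays of 1 replicate were left out. Of 458 values of the 21 genes given array by array by the rule, under 22 alternatives, 10 changed sign and 0 passed the threshold (the other 448 kept their direction). Within replicates 3 and 4 Mki67 (-0.26), Aurka (-0.11) and Anln (-0.067) were lower in the arrays labelled Bmi1. With array weights Ccnb2 (-0.18), Cdk1 (-0.13), Foxm1 (-0.065), Aurka (-0.061) and Ncapd2 (-0.0096) were. With 1 array left out Mki67 ran from -0.19 to 0.90 and Aurka from -0.020 to 0.56. The cause was not tested. The same 3 scalings with the replicate block, added after the data were seen, gave 15, 17 and 14 members higher at an unadjusted p under 0.05 (10.8%, 10.2% and 10.01% of all tested genes) and 0 passing, with smallest adjusted p of 0.0587, 0.061 and 0.0626.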
